A study of Saccharomyces cerevisiae with 12 samples.

Results

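The ADE genes of budding yeast code for the enzymes that build purine nucleotides from small precursors. The 10 genes described here, ADE1, ADE2, ADE3, ADE4, ADE5,7, ADE6, ADE8, ADE12, ADE13 and ADE17, were chosen by name and by systematic ID from the 7126 genes listed. All 10 were above 0 in every library and all 10 passed the filter on low values. With α-factor ADE2, ADE1, ADE13 and ADE17 rose in both strains, while ADE5,7 and ADE6 fell. ADE2 was also the member that differed most between the strains, at 307 ± 17.4 FPKM in MATa and 118 ± 12.2 FPKM in MATα-playing-a cells without α-factor (SD, n = 3).

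Purine synthesis starts from the activated sugar PRPP and assembles the purine ring on it step by step. Ade4 adds the first nitrogen, Ade5,7 acts at a pair of steps as a fused enzyme, and Ade8 and Ade6 act between them. Ade2 then adds a carboxyl group to the ring intermediate AIR, whose build-up in ade2 mutants gives red colonies. Ade1 and Ade13 follow, and Ade17 and its paralog Ade16 close the second ring to give IMP. From IMP, Ade12 and again Ade13 make AMP, while the IMP dehydrogenases of the IMD family and Gua1 make GMP. Ade3 supplies folate-bound carbon units. The factor Bas1, with its partner Pho2, activates most ADE genes when adenine is scarce. Gcn4, the activator of amino acid synthesis, reads the same core motif.

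RNA was sequenced from strain MP 384, labelled MATa, and strain LBHY29, labelled MATα-playing-a, an α strain named for acting as an a cell. The labels list no alleles for either strain. Both grew to log phase at 30 °C in the rich medium YPD with 0.1% BSA. Unstimulated samples were taken first, and 10 nM α-factor was then added to the rest of the culture for 2 h, so that there were 4 groups of 3 biological replicates. Stimulated cells therefore also spent longer in culture, and the effects of α-factor and of time cannot be told apart. Nor can RNA per cell be told apart from the share of cells that hold it.

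The pheromone-induced genes FUS1 and FIG1 were far higher with α-factor in both strains, FUS1 by 18.0-fold in MATa and 27.3-fold in MATα-playing-a cells. STE2, the α-factor receptor gene of a cells, was present in both, at 3674 ± 462 FPKM in MATa and 565 ± 62.1 FPKM in MATα-playing-a cells without α-factor. MFA1, an a-factor gene, was also present in both. STE3 and MF(ALPHA)1, genes of α cells, were listed at 0 in all 6 MATα-playing-a libraries. They were detected at low levels in MATa cells, STE3 at 10.7 ± 2.01 FPKM without and 19.7 ± 5.52 FPKM with α-factor. MF(ALPHA)1 was at 6.70 ± 2.67 FPKM in unstimulated MATa cells and listed at 0 in stimulated ones. BAR1, a protease gene of a cells, was listed at 0 in all 6 MATa libraries and above 0 in the other strain. Summed FPKM was lower in every stimulated library than in any unstimulated one, and ribosomal protein genes held 28.1% to 29.35% of it with α-factor and 33.07% to 37.98% without. Apart from fits with median ratio and quantile scaling, given as alternatives below, the part of these shifts in the results was not tested. Library depths are not known.

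The core motif TGACTC, read by Bas1 and Gcn4, was searched on both strands of the 300 bases before each start codon in the R64 reference. It stood in 9 of the 10 member promoters, against 466 of 6001 protein-coding genes (7.8%), and 4 of the 10 held it at least 2 times, against 0.65% of all. ADE4 had no match in this window. Stretches of 3 promoters of genes that rose and 2 of genes that fell are shown because genes of both kinds carry the motif. They are given from 12 bases before the first match to 12 after the last, 5′ to 3′ on the strand of the gene, with TGACTC or its reverse complement GAGTCA in capitals.
ADE1, chrI:169137-169175, plus strand: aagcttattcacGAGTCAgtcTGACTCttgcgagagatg
ADE2, chrXV:566327-566399, minus strand: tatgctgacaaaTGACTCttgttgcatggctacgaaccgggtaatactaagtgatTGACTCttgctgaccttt
ADE17, chrXIII:509440-509469, minus strand: ccagaaatgaatTGACTCctctcataactt
ADE5,7, chrVII:56253-56315, plus strand: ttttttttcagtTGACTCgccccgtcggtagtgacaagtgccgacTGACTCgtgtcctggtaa
ADE6, chrVII:616224-616253, minus strand: ttcaaccgttccTGACTCtttcctgctgac

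In ADE1 the matches lie close together, 1 on each strand, from 226 to 212 bases before the start codon. ADE2 has them on its own strand, the nearer one ending 148 bases before the start codon. In ADE5,7, which fell, a pair of matches on the strand of the gene ends 212 and 179 bases before the start codon. A match describes these letters and does not show that a factor was bound.

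**Figure D1:**
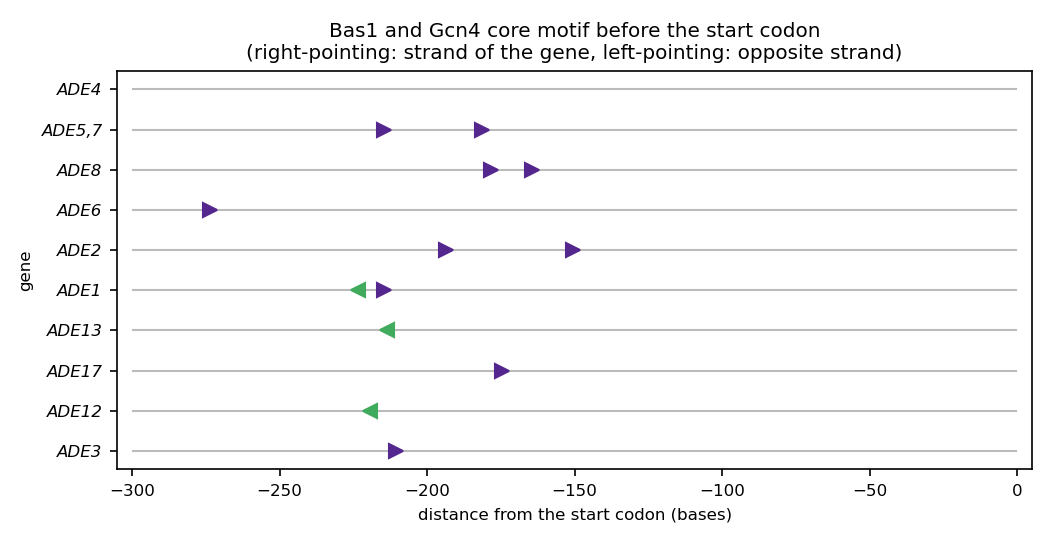
Matches to the core motif TGACTC in the 300 bases before the start codon of the 10 ADE genes, plotted by distance from the start codon in bases. Triangles pointing right lie on the strand of the gene and triangles pointing left on the other strand. Every gene but ADE4 has 1 or 2 matches.

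Levels in FPKM are scaled per length, so the genes are set beside each other here. The levels also carry a further scaling of unknown source, and whether it is equal for all genes was not tested. ADE13, adenylosuccinate lyase, was the highest of the 10 in all 4 groups, and its mean over the 12 libraries of 1163 FPKM lay above 88.9% of all listed genes. ADE17 had the lowest mean in each group, and its mean over the 12 libraries of 152 FPKM lay above 42.1% of genes. Without α-factor ADE5,7 came second in both strains, at 849 ± 79.9 FPKM in MATa and 854 ± 72.5 FPKM in MATα-playing-a cells. With α-factor ADE3 held that place, at 890 ± 21.1 and 796 ± 40.0 FPKM. Several neighbours in the order overlapped: in unstimulated MATa cells ADE5,7 overlapped ADE3, ADE3 overlapped ADE12, and ADE4, ADE8 and ADE1 each overlapped the next. ADE2 overlapped ADE12 in stimulated MATa cells and ADE17 in stimulated MATα-playing-a cells. By group means it stood at place 9 of 10 in unstimulated and at place 4 in stimulated MATa cells, and at place 9 in both groups of the other strain. There ADE1 stood at place 8 without and at place 3 with α-factor.

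**Figure D2:**
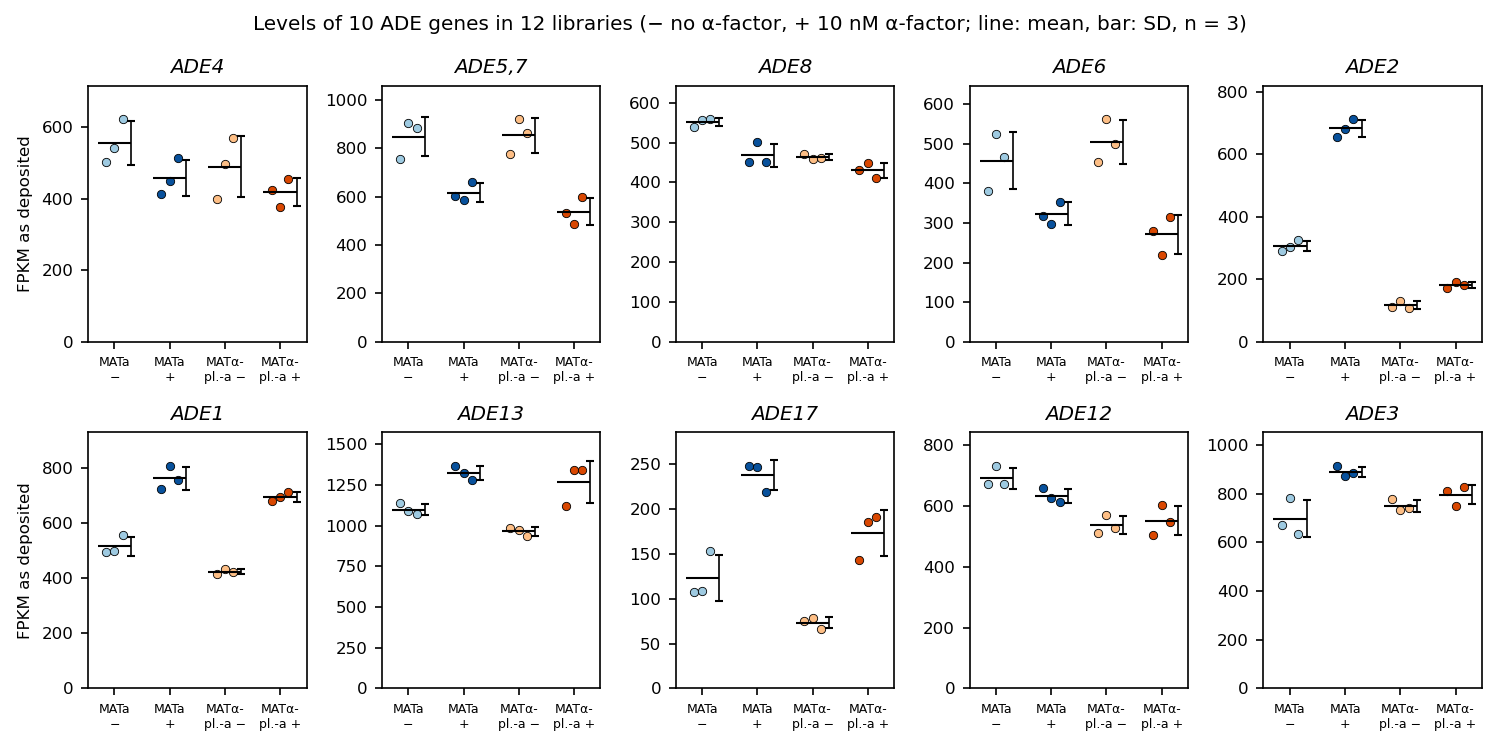
FPKM of each ADE gene in all 12 libraries, with 1 panel per gene in pathway order. Points are libraries, lines are group means and bars are SDs of 3 libraries. ADE2 lies at 657 to 712 FPKM in stimulated MATa cells and below 193 FPKM in all 6 MATα-playing-a libraries.

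Of the 4 genes that act up to AIR, ADE4, ADE5,7, ADE8 and ADE6, 3 fell with α-factor in MATa and 2 in MATα-playing-a cells, and the others did not pass. In MATa cells 5 of the 10 members were called higher and 3 lower, beside 28.5% and 38.1% of all 6608 tested genes. MATα-playing-a cells had 4 members higher and 2 lower, beside 29.8% and 39.1% of all genes. So many genes moved that these counts alone do not set the ADE genes apart. The median log2 change was 0.07 and 0.06 over the members and -0.09 and -0.10 over all tested genes. The surplus of falls over all genes depended on the scaling. Median ratio scaling gave 2175 genes higher and 2158 lower in MATa and 2266 and 2206 in MATα-playing-a cells. Quantile normalisation gave 1880 higher and 2405 lower in MATa and 1906 and 2595 in MATα-playing-a cells.

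ADE6, which codes for a nitrogen-adding enzyme of the assembly (YGR061C, chromosome VII, 611889 to 615965), had 381, 526 and 466 FPKM in unstimulated MATa cells and 318, 297 and 354 with α-factor. It was at 454, 562 and 499 FPKM in unstimulated and at 279, 219 and 316 in stimulated MATα-playing-a cells. Stimulated libraries lay below unstimulated ones in both strains with no overlap. The log2 change was -0.49 ± 0.15 (SE; limma adjusted p = 0.0118) in MATa and -0.90 ± 0.15 (adjusted p = 0.000215) in MATα-playing-a cells. Without replicate 2 of unstimulated MATa the fall in MATa cells missed the threshold (log2 change -0.39, adjusted p = 0.0506, the highest over all alternatives, from 0.00413).

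ADE5,7, the gene of the fused enzyme (YGL234W, chromosome VII, 56482 to 58890), was at 758, 907 and 883 FPKM in unstimulated and 602, 586 and 662 in stimulated MATa cells. In MATα-playing-a cells it was at 776, 920 and 865 FPKM unstimulated and at 531, 486 and 598 with α-factor. Here too the groups did not overlap in either strain. It fell by 0.46 ± 0.10 on the log2 scale in MATa (adjusted p = 0.00156) and by 0.67 ± 0.10 in MATα-playing-a cells (adjusted p = 9.7e-05).

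ADE8, which codes for a formyl transferase (YDR408C, chromosome IV, 1288215 to 1288859), fell in MATa cells from 539, 557 and 558 FPKM to 450, 501 and 452 (log2 change -0.24 ± 0.06, adjusted p = 0.00345). With median ratio and quantile scaling the ADE8 change was smaller, at -0.15 and -0.14 (adjusted p = 0.0433 and 0.0454). In MATα-playing-a cells its levels were 464 ± 6.98 and 430 ± 18.6 FPKM and it did not pass (adjusted p = 0.113). ADE4, the gene of the first enzyme of the pathway (YMR300C, chromosome XIII, 865559 to 867091), did not pass in either strain, and that outcome changed with the fit. Its levels were 556 ± 60.7 and 459 ± 50.2 FPKM in MATa (log2 change -0.28, adjusted p = 0.0885) and 490 ± 85.1 and 419 ± 39.0 FPKM in MATα-playing-a cells (log2 change -0.21, adjusted p = 0.177). The groups overlapped in both strains. Without replicate 1 of unstimulated MATα-playing-a, the lowest of its group, ADE4 passed as lower in MATa (adjusted p = 0.0468) and in MATα-playing-a cells (log2 change -0.35, adjusted p = 0.0283). Over all alternatives its adjusted p in MATa cells ran from 0.0175, with a replicate block by number, to 0.28. For MATα-playing-a cells it ran from 0.0283 to 0.554.

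All 4 members that act from AIR to IMP rose in both strains, where 28.5% of all genes rose in MATa and 29.8% in MATα-playing-a cells. A split of the pathway at AIR was not among the planned comparisons and was not tested. ADE2, AIR carboxylase (YOR128C, chromosome XV, 564476 to 566191), was at 292, 302 and 326 FPKM in unstimulated MATa cells and at 657, 683 and 712 with α-factor. MATα-playing-a cells held 112, 132 and 110 FPKM of it unstimulated and 171, 193 and 182 with α-factor. The 4 groups did not overlap, and both MATα-playing-a groups lay below both MATa groups. ADE2 rose 2.23-fold in MATa (log2 change 1.16 ± 0.08, adjusted p = 3.0e-07) and 1.54-fold in MATα-playing-a cells (0.63 ± 0.08, adjusted p = 3.5e-05).

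ADE17 codes for an enzyme of the last steps to IMP (YMR120C, chromosome XIII, 507502 to 509280). It was at 108, 109 and 153 FPKM in unstimulated MATa cells and at 248, 246 and 219 with α-factor. In the other strain it was at 74.7, 78.0 and 66.1 FPKM unstimulated and at 143, 185 and 191 with α-factor. It rose 1.95-fold (log2 change 0.96 ± 0.15, adjusted p = 0.000134) and 2.34-fold (1.23 ± 0.15, adjusted p = 1.9e-05), the largest change of any member in MATα-playing-a cells. Its paralog ADE16 was 5.9 to 12.37 times as high in the 4 groups, and the coding sequences are 74.7% identical with no identical run over 19 bases. ADE16 rose as well, 1.40-fold in MATa and 1.52-fold in MATα-playing-a cells.

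ADE1, SAICAR synthetase (YAR015W, chromosome I, 169375 to 170295), was at 496, 497 and 556 FPKM in unstimulated and 723, 807 and 757 in stimulated MATa cells. The unstimulated MATα-playing-a libraries held 415, 434 and 421 FPKM and the stimulated ones 678, 693 and 713. It rose 1.48-fold (adjusted p = 1.1e-05) and 1.64-fold (adjusted p = 1.6e-06), with no overlap in either strain. ADE13, adenylosuccinate lyase (YLR359W, chromosome XII, 844282 to 845730), rose by less, from 1097 ± 34.5 to 1324 ± 42.4 FPKM in MATa (1.21-fold, adjusted p = 0.00568) and from 964 ± 25.3 to 1267 ± 128 FPKM in MATα-playing-a cells (1.31-fold, adjusted p = 0.000484).

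The remaining pair acts beside the line to IMP. ADE12, the first enzyme from IMP to AMP (YNL220W, chromosome XIV, 234413 to 235714), passed in neither strain, at 692 ± 35.1 and 633 ± 23.5 FPKM in MATa (adjusted p = 0.149) and 537 ± 29.7 and 552 ± 48.8 FPKM in MATα-playing-a cells (adjusted p = 0.669). The 95% intervals of its log2 change were -0.29 to 0.04 and -0.13 to 0.20. ADE3, the C1-tetrahydrofolate synthase of the cytoplasm (YGR204W, chromosome VII, 905934 to 908774), rose 1.28-fold in MATa cells, from 673, 781 and 634 FPKM to 914, 873 and 883 (adjusted p = 0.00129). In MATα-playing-a cells it was at 749 ± 23.5 and 796 ± 40.0 FPKM with overlapping groups (adjusted p = 0.328).

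**Figure D3:**
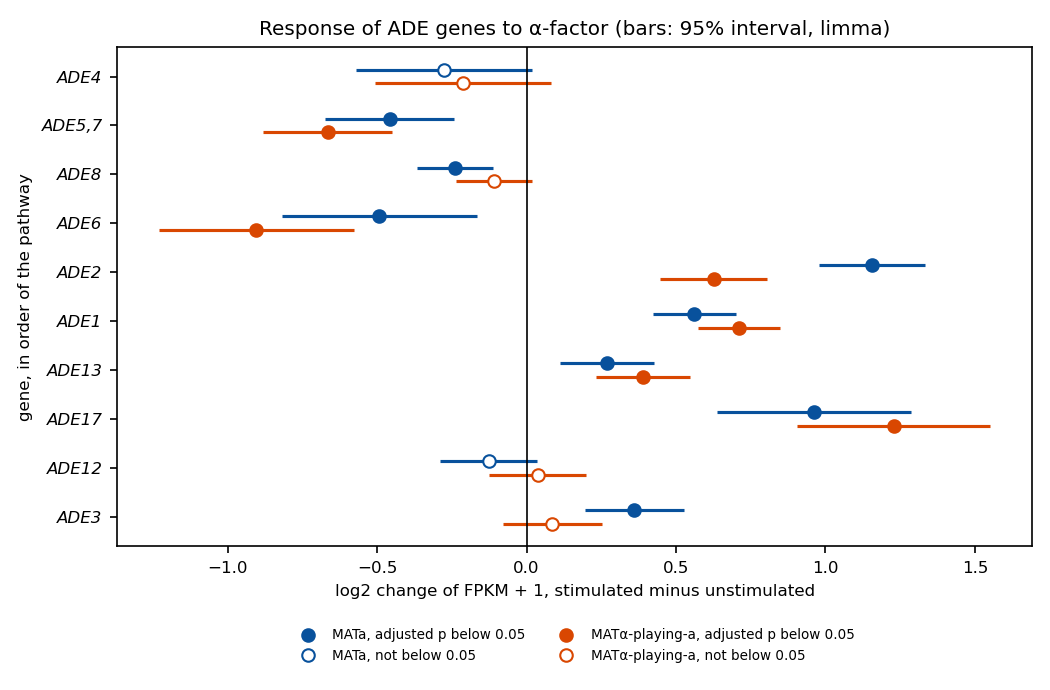
Log2 change of FPKM + 1 from unstimulated to stimulated cells for each ADE gene in pathway order, MATa in blue and MATα-playing-a in orange, with limma 95% intervals. Filled points passed at an adjusted p below 0.05. The 4 genes from ADE4 to ADE6 lie left of 0 and the 4 from ADE2 to ADE17 right of it, the latter all filled.

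Whether a response differed between the strains was tested as a difference of the responses. No member passed this test in limma, where 0.484% of all genes did; 2 of the 10, ADE2 and ADE3, had an unadjusted p below 0.05, as did 771 of the 6608 tested genes. For ADE2 the response was lower in MATα-playing-a cells by 0.53 ± 0.11 on the log2 scale (95% interval -0.78 to -0.28, unadjusted p = 0.000747, adjusted p = 0.0925). For ADE3 the difference was -0.27 ± 0.11 (adjusted p = 0.383). ADE3 and ADE8, which passed in MATa cells and not in the other strain, are thus not shown to respond differently.

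Without α-factor 3 members were lower in MATα-playing-a than in MATa cells and none was higher, where 0.605% of all genes were lower and 0.348% higher. ADE2 stood furthest apart, with a log2 difference of -1.38 ± 0.08 (adjusted p = 1.3e-06). ADE17 (-0.73 ± 0.15) and ADE12 (-0.37 ± 0.07) passed narrowly, both at an adjusted p of 0.0464. Of 12 fits that each left out 1 library, ADE12 passed only in those without replicate 1 or 2 of stimulated MATα-playing-a, and ADE17 only in that without replicate 1 of the same group. Over all alternatives the adjusted p ran from 0.0261 to 0.191 for ADE12 and from 0.0284 to 0.286 for ADE17. ADE12 was at 672, 732 and 671 FPKM in unstimulated MATa cells and at 512, 570 and 529 in unstimulated MATα-playing-a cells. Of 7 histidine genes HIS4 alone passed, also as lower, at 293 ± 29.3 and 206 ± 10.3 FPKM (log2 difference -0.50, adjusted p = 0.0186).

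With α-factor ADE2 alone of the members differed, at 684 ± 27.5 FPKM in MATa and 182 ± 10.9 FPKM in MATα-playing-a cells (log2 difference -1.91 ± 0.08, adjusted p = 4.3e-08). That comparison called 1.56% of all genes higher and 0.651% lower in MATα-playing-a cells, and 70.5% of its calls were higher, or 57.7% with quantile normalisation. The other 9 members also had lower fitted values in MATα-playing-a cells, from -0.07 for ADE13 to -0.46 for ADE17 on the log2 scale, and did not pass (adjusted p from 0.206 for ADE17 to 0.782 for ADE13). Over all tested genes the median difference was 0.005, and the share of genes with lower values was not counted. The genes on either side of ADE2 did not show its strain difference. RGA1, a GTPase-activating protein gene, had log2 differences of 0.08 without and 0.14 with α-factor (adjusted p = 0.857 and 0.776), and AFI1 had 0.12 and -0.16 (adjusted p = 0.462 and 0.326). AFI1 itself rose with α-factor in both strains, by 1.30 and 1.02 on the log2 scale.

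**Figure D4:**
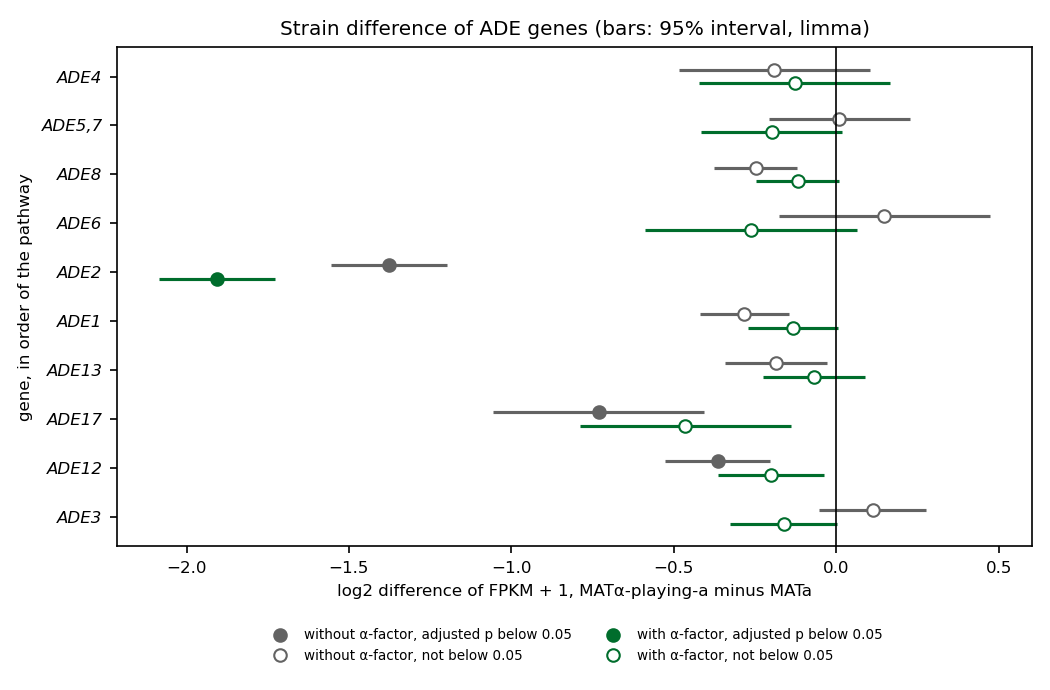
Log2 difference of FPKM + 1 between strains, MATα-playing-a minus MATa, for each ADE gene without α-factor (grey) and with it (green), with limma 95% intervals. Filled points passed at an adjusted p below 0.05. ADE2 lies at -1.38 and -1.91, and all other members lie between -0.73 and 0.15.

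Most genes of the GMP branch, PRPP synthesis and purine salvage fell. In a list of 12 genes, made up of ADE16 and genes of the GMP branch, PRPP synthesis and nucleotide kinases, 11 fell and 1, ADE16, rose in MATa cells, where 38.1% of all genes fell, with a median log2 change of -0.55, against -0.09 over all tested genes. In MATα-playing-a cells, where 39.1% of all genes fell, 9 fell and ADE16 rose (median -0.45, against -0.10 over all). IMD4, an IMP dehydrogenase gene, fell from 3269 ± 309 to 1582 ± 63.2 FPKM in MATa cells, and GUA1, GMP synthase, from 3761 ± 298 to 2130 ± 116. The IMD genes are close paralogs and IMD4 overlaps snR54, so that their single values are uncertain.

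IMD2 was at 624 ± 158 and 313 ± 33.8 FPKM in MATa cells (adjusted p = 9.7e-05), and at 633 ± 25.3 and 590 ± 31.0 FPKM in MATα-playing-a cells (adjusted p = 0.543). The difference of the IMD2 responses, 0.87 ± 0.20 on the log2 scale, did not pass (adjusted p = 0.118). With α-factor IMD2 was higher in MATα-playing-a than in MATa cells by 0.92 on the log2 scale (adjusted p = 0.00473). The 5 PRS genes, which make PRPP, all fell in MATa cells, by 0.20 for PRS3 to 0.55 for PRS2 on the log2 scale. In MATα-playing-a cells 4 of them fell, and PRS3 was at 1638 ± 118 and 1580 ± 72.5 FPKM (adjusted p = 0.499).

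Of 12 genes of purine salvage and uptake 8 fell and 3 rose in MATa cells (median log2 change -0.47), and 7 fell and 3 rose in MATα-playing-a cells (median -0.52). Of all genes 38.1% and 39.1% fell and 28.5% and 29.8% rose in the respective strains, so the rises in this list were no more frequent than over all genes. HPT1, which salvages hypoxanthine and guanine, fell from 3407 ± 79.0 to 983 ± 49.7 FPKM in MATa and from 2668 ± 287 to 1150 ± 135 FPKM in MATα-playing-a cells. FCY2, the purine and cytosine permease, fell to 0.425 and 0.448 times its level, and AAH1, adenine deaminase, to 0.484 and 0.567 times. The genes that rose were GUD1, guanine deaminase, 3.68-fold and 3.58-fold, ISN1, an IMP nucleotidase, 1.52-fold and 1.70-fold, and PNP1, purine nucleoside phosphorylase, 1.36-fold and 1.43-fold.

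Histidine synthesis branches from PRPP and hands the purine intermediate AICAR back to the pathway. Of its 7 genes 5 rose and 1 fell in MATa cells (median log2 change 0.39), and in MATα-playing-a cells 6 were higher and 1 lower (0.49). Over all genes the shares were 28.5% higher and 38.1% lower in MATa and 29.8% higher and 39.1% lower in MATα-playing-a cells, with medians of -0.09 and -0.10. HIS4 rose 2.95-fold in both, from 293 ± 29.3 to 866 ± 80.8 FPKM in MATa and from 206 ± 10.3 to 611 ± 27.1 FPKM in MATα-playing-a cells. HIS5 rose 2.22-fold and 2.62-fold. HIS6, which overlaps another listed gene, fell to 0.347 and 0.349 times its level.

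Of 7 genes that supply one-carbon units and handle glycine, 3 rose and 2 fell in MATa cells (median log2 change 0.25), and in MATα-playing-a cells 3 were higher and 1 lower (0.30). Beside the 28.5% and 29.8% of all genes that rose and the 38.1% and 39.1% that fell, these counts out of 7 do not set the list apart. SHM2, the serine hydroxymethyltransferase of the cytoplasm, rose 1.49-fold and 1.39-fold, and GCV2, a subunit of the glycine cleavage complex, 1.45-fold and 1.64-fold. MIS1, which codes for the mitochondrial counterpart of Ade3, fell from 786 ± 74.3 to 342 ± 36.3 FPKM in MATa and from 857 ± 88.5 to 340 ± 21.5 FPKM in MATα-playing-a cells. The core motif stood before 6 of the 7 histidine and 5 of the 7 one-carbon genes, and before 1 of 12 and 2 of 12 in the list with ADE16 and the GMP branch and in the salvage list.

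Among the regulators BAS1 fell, from 195 ± 22.1 to 110 ± 4.22 FPKM in MATa (log2 change -0.82 ± 0.10, adjusted p = 1.9e-05) and from 218 ± 22.8 to 113 ± 7.99 FPKM in MATα-playing-a cells (-0.93 ± 0.10, adjusted p = 6.9e-06). PHO2 was at 112 ± 6.33 and 122 ± 1.32 FPKM in MATa cells and at 128 ± 4.01 and 120 ± 19.7 FPKM in the other strain (adjusted p = 0.345 and 0.408). GCN4, whose protein is controlled mainly at translation, was at 6126 ± 610 and 5944 ± 340 FPKM in MATa cells and at 6002 ± 186 and 6568 ± 241 FPKM in the other strain (adjusted p = 0.649 and 0.14). Neither PHO2 nor GCN4 passed in either strain.

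**Figure D5:**
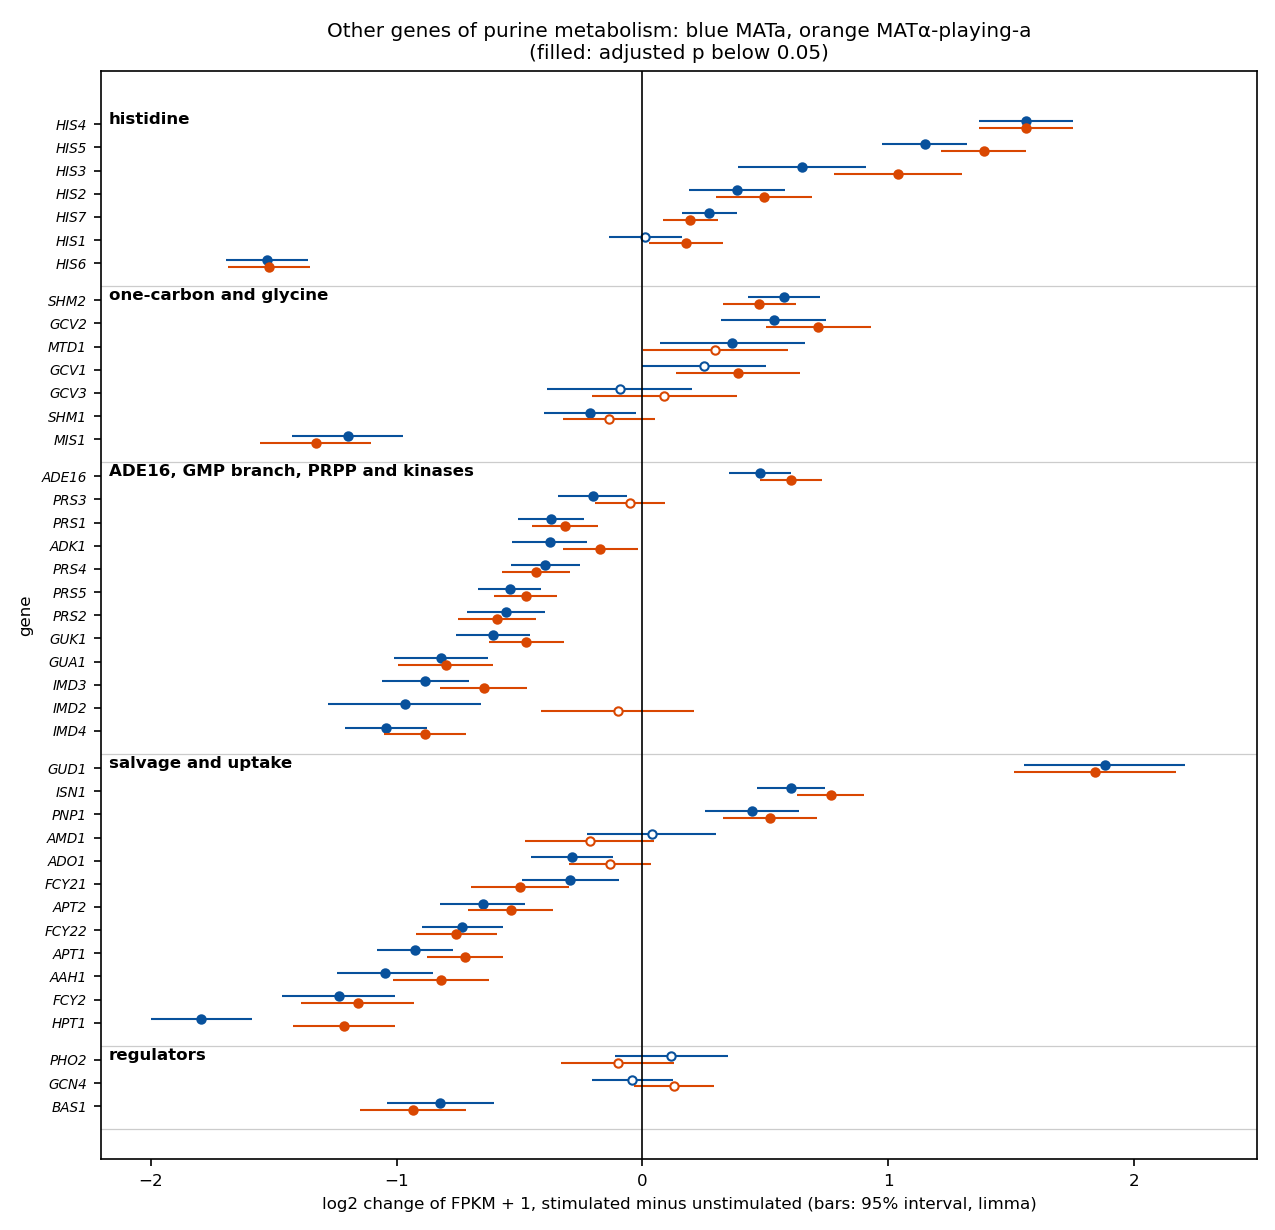
Log2 change of FPKM + 1 from unstimulated to stimulated cells for other genes of purine metabolism, grouped by list, MATa in blue and MATα-playing-a in orange, with limma 95% intervals. Filled points passed at an adjusted p below 0.05. Most points of the GMP branch, PRPP, kinase and salvage genes lie left of 0, with ADE16, GUD1, ISN1 and PNP1 to the right, and HIS4 and HIS5 lie beyond 1.

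Across the 12 libraries the members fell into unlike patterns, given here as a description since libraries of 1 group share a condition. ADE5,7 and ADE6 followed each other most closely, with a Pearson r of 0.98 on log2 values. ADE1 and ADE17 came next at 0.97, and ADE13 followed ADE1 and ADE17 at 0.92 and 0.94. Between the 2 sets the correlation was negative, at -0.81 for ADE1 and ADE6. ADE2, set apart by its strain difference, had 0.70 with ADE1 and 0.80 with ADE17. As these sets ran in opposite directions, no gene could follow all 10 closely. The highest median r over the members was 0.58, for MFA1, whose r with single members ran from -0.32 to 0.96. The next were YJR027W, YGR161W-A, LHS1 and PLB3 at 0.56 to 0.57, with lowest r from -0.60 for YGR161W-A to -0.46 for PLB3.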

How the data were processed

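RNA of 12 yeast libraries was measured by sequencing. The authors deposited FPKM values per gene for each library, made with CASAVA 1.8.2, TopHat 1.1.4 and Cufflinks 0.9.3, per the submitters' processing notes. The genome build is not given in the sources used here. Gene coordinates equalled the RefSeq R64 reference for 6036 of 6048 matched IDs and for all members, and sequences were read from R64. FPKM times gene length summed to 5.02 to 6.225 times what the unit allows, so levels carry a further scaling of unknown source. Low values showed no clear step of whole reads, so depth and counting error are unknown.

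Values entered as log2(FPKM + 1), for the 6608 genes with a mean of at least 1 FPKM, so fold changes are on that scale. All 12 libraries entered 1 linear model with a mean for each of the 4 groups, in limma 3.58.1 under R 4.3.3, with moderated variances that follow mean intensity and no replicate block. P-values are 2-sided and Benjamini-Hochberg adjusted over all tested genes, with calls below 0.05. The fit was tested on simulated data for the response in MATa cells. It recovered 93.2% of log2 shifts of 1 and 66.6% of smaller ones, and called 0.147% of unshifted genes. A small change that did not pass is therefore not shown to be absent. Tables, motif searches and plots used Python 3.11.15, pandas 2.3.3, Biopython 1.88 and matplotlib 3.10.9.

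The members were taken by name and no value entered that rule, but they and the lists were chosen with earlier results of these data known. All members are named, and of the other lists those with the largest changes or a stated role. Genes most alike were the 5 with the highest median r with the members, among those with a mean of at least 10 FPKM. Read strand is not given; no member overlaps another listed gene. Alternatives were pseudocounts of 0.1 and 10, no filter or a mean of at least 10, median ratio and quantile scaling, blocks by replicate number and by culture, leaving out each library, fits to the compared libraries only, fits without the trend, and calls that also need a fold of 2.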

Additional observations from a re-analysis of the deposited data

How the results depend on the processing

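The 5 rises and 3 falls in MATa cells and the 4 rises and 2 falls in MATα-playing-a cells kept their counts within 1.5 times under every scaling, pseudocount, filter and block. With a fold of at least 2, 1 member rose and 0 fell in each strain, and over all genes 646 rose and 499 fell in MATa and 738 and 499 in MATα-playing-a cells. Leaving out 1 library gave 2 to 4 falls of members in MATa and 2 to 3 in MATα-playing-a cells. Of the members lower in MATα-playing-a cells without α-factor, 1, ADE2, stayed with the compared libraries alone, without the trend and at a fold of 2, and 1 to 3 stayed without any 1 library. Over all genes this comparison gave 14 higher and 19 lower with the compared libraries alone, and also at a fold of 2. With α-factor it gave 66 lower with quantile normalisation, 34 higher and 15 lower at a fold of 2, and 59 to 108 higher and 26 to 45 lower without 1 library. The difference of the responses gave 8 lower with quantile normalisation, 11 higher with a block by culture, 16 higher at a fold of 2, and 17 to 42 higher and 4 to 8 lower without 1 library. Except where fewer libraries or a stricter threshold set them, the cause of these changes was not tested.

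Signs turned only for member values that were not called. The ADE4 difference of responses was -0.017 with quantile normalisation and ran from -0.073 to 0.18 without 1 library. Without 1 library the strain difference ran from -0.070 to 0.076 for ADE5,7 without α-factor and from -0.11 to 0.019 for ADE13 with it, and the ADE12 response in MATα-playing-a cells from -0.028 to 0.099. Deviations of same-numbered libraries of a strain had r from -0.21 to 0.20 in 6 pairs. Libraries with unlike numbers had r from -0.22 to 0.19 in 12 pairs. With 3 libraries a group, such values cannot show that pairing is absent. The numbers were not taken as pairs in the main fit, although the protocol draws both samples from 1 culture. With a replicate block by number ADE4 passed as lower in MATa cells (adjusted p = 0.0175), as with a replicate block by culture (0.0377), and ADE17 missed the threshold between unstimulated strains (0.0898). Depth is unknown and limits no stated value by a figure.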

Other observations

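Within groups, ADE5,7 and ADE6 also deviated together from library to library: their deviations from the group means had a Pearson r of 0.96 over the 12 libraries, and ADE4 had 0.74 with ADE5,7 and 0.60 with ADE6. ADE8 had -0.46 with ADE5,7 and -0.48 with ADE6. ADE1 and ADE17, which rose, had 0.69. These values rest on 3 libraries a group and are given with no test. Genes outside the list were not compared in this way, so the values are not shown to be particular to the ADE genes. ADE5,7 and ADE6 span 2409 and 4077 bases, ADE4 1533, ADE17 1779, ADE1 921 and ADE8 645. Whether the deviations went with gene length was not tested.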
